A study of Mus musculus with 12 samples.

Results

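Cholesterol synthesis and sterol response genes were examined in fluorescent endothelial cells sorted from mesentery, the fold of membrane through which vessels reach the gut, and from epididymal fat. The members were 30 genes taken by symbol from a table of 27825 genes: 18 enzymes of cholesterol synthesis, 4 genes of the sterol sensor, 3 other targets of the sterol-regulated transcription factors, and 5 genes of the liver X receptors and of cholesterol efflux. All 30 were in the table, and all 30 had a mean of at least 10 normalized counts and entered the tests with 22238 genes in all. They were chosen by name and function, with earlier results of these data known.

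All mice were male and of genotype ROSA26-eYFP+/+ Cdh5-CreERT2+, in which the Cdh5 promoter drives a tamoxifen-inducible Cre that switches on a yellow fluorescent reporter. Tamoxifen was given in food from 6 weeks of age for 2 weeks, and the controls received it too. From 8 weeks of age food was either chow of 5.8% fat or a high fat diet (HFD) of 60% fat, kept up for 12 to 13 weeks, and tissue of 6 mice was pooled in each sample, digested with actinomycin D and sorted. The 12 libraries form 4 groups of 3, lettered A, B and C: mesentery on chow, mesentery on HFD, epididymal fat on chow and epididymal fat on HFD. The labels speak of 2 independent replicates, so a p-value here measures the spread between libraries that may not all be independent. They also number the libraries: 50, 51 and 87 for chow A, B and C, and 88, 52 and 53 for HFD A, B and C, in both tissues, without saying what the number ranges stand for.

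Cells make cholesterol from acetyl-CoA through mevalonate, isoprenoid and sterol intermediates. When membrane sterol is low, the escort protein Scap carries Srebf2 (SREBP2) to the Golgi, where it is released to activate the genes of this pathway, and when sterol is high the Insig proteins hold Scap in the endoplasmic reticulum. Oxysterols instead activate the liver X receptors (LXRs), Nr1h3 and Nr1h2, which raise cholesterol efflux and Mylip, a ubiquitin ligase that marks lipoprotein receptors for degradation.

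Promoter sequence is shown for Hmgcs1, the member that held the sterol element searched for, and for Sc5d, Nr1h3 and Mylip, whose RNA differed between the tissues on chow. RefSeq promoters of build GRCm38.p6, from 250 bases before to 50 bases after a start site, were found for 24 of the 30 members (31 promoters). Sqle, Fdft1, Fdps, Stard4, Fads1 and Abcg1 had no promoter to search. Printed 5′ to 3′ on the gene's strand, capitals mark TCACNCCAC, a form of the sterol regulatory element, and CCAAT or its complement ATTGG, the box bound by NF-Y. Other forms of the element were not searched for.
Hmgcs1, chr13:119690101-119690350, plus strand: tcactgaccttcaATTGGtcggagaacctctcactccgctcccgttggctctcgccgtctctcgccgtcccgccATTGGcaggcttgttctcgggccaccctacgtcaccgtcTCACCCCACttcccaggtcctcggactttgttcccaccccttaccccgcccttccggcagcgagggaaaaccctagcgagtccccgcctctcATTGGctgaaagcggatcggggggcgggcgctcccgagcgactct
Sc5d, chr9:42264301-42264550, minus strand: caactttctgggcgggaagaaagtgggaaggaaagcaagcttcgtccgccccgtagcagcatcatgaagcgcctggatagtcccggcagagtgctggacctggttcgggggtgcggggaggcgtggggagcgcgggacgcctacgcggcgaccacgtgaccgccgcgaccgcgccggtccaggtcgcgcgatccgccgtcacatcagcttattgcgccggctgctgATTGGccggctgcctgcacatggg
Nr1h3, chr2:91195152-91195366, minus strand: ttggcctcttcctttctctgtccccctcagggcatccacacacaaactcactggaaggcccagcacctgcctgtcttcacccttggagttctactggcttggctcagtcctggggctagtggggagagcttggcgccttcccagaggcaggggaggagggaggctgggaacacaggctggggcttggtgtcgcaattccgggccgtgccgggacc
Mylip, chr13:45389492-45389741, plus strand: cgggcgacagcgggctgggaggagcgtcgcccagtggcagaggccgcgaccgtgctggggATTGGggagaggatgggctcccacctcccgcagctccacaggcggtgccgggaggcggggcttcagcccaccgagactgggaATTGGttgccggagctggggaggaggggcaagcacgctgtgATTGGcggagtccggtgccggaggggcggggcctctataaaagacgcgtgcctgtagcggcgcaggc
The stretch shown for Nr1h3 runs from 250 to 36 bases before the start site and the others from 250 bases to 1 base before it. On either strand, TCACNCCAC occurred in 1 of the 31 member promoters, against 1.24% of all 32851 promoters of the same length. The match was in Hmgcs1, as TCACCCCAC 137 bases before the start site. CCAAT occurred in 18 of the 31 member promoters, against 37.4% of all promoters. AGGTCA in 2 copies of the same direction with 4 bases between them, the arrangement LXRs bind, occurred in none of the member promoters and in 0.0152% of all. These are matches of letters in this window only.

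Endothelial identity and other cells were checked with marker lists. Each of the 10 endothelial markers had reads in every group, with Cdh5 between 2172 and 4822 normalized counts over the 12 libraries. Their summed level was 89173 to 119788 in mesentery on chow, 83474 to 93217 in mesentery on HFD, 66521 to 81337 in epididymal fat on chow and 37221 to 71087 in epididymal fat on HFD. Single markers did not all move alike. On chow 4 of 10 had estimates higher in epididymal fat than in mesentery, and on HFD 2 of 10. Mean Emcn and Kdr on chow were 35567 and 20701 normalized counts in mesentery against 10851 and 6762 in epididymal fat. Esam and Cldn5 were at 17463 and 886 against 19096 and 15985. RNA of other cell types was present and moved with tissue or diet. The 12 macrophage markers summed to 2047 to 11434 and 6916 to 27081 in mesentery on chow and HFD, and to 7568 to 94254 and 151154 to 380386 in epididymal fat. The 8 adipocyte markers stood at 64264 to 87225 in epididymal fat on chow, against 4450 to 15007 there on HFD and 4870 to 10330 in mesentery. Fibroblast markers (7 genes) were at 18654 to 62471 in epididymal fat and at 4604 to 9977 in mesentery. The 8 smooth muscle and pericyte markers summed to 1325 to 1599 and 1617 to 3848 in mesentery on chow and HFD, and to 12301 to 22484 and 5967 to 11955 in epididymal fat. The 6 mesothelial markers were at 66.2 to 236 and 149 to 244 in mesentery, with Wt1 at 0 on chow, and at 405 to 758 and 236 to 492 in epididymal fat. The 7 pancreatic acinar markers were at 23335 to 155157 in mesentery and at 183 to 550.0 in epididymal fat, with Prss2 at 0 in epididymal fat on HFD. Lymphocyte markers (6 genes) summed to 7144 in HFD library C of mesentery and to 175 and 148 in the others of that group. The remaining groups had sums of 165 to 1985. Summed levels of 8 cell cycle genes were 276 to 653 on chow and 376 to 895 on HFD in mesentery. The epididymal sums were 277 to 622 on chow and 1364 to 3069 on HFD, where 2 of the 8 passed in limma as higher. Library totals ran from 8348897 to 25397963 reads and mitochondrial genes took 2.5% to 20.6% of them. In such bulk samples fewer cells of a type and less RNA per cell cannot be told apart.

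Per kilobase of exon, members spanned a wide range of levels. Ebp, a sterol isomerase, had the highest mean over the 12 libraries at 469 normalized counts per kilobase, followed by Nr1h2 at 373 and Mylip at 370.0. At the other end, Lss, which closes squalene oxide to lanosterol, stood at 5.29, with the late reductases Tm7sf2 at 12.7 and Dhcr7 at 14.3. The length covers all annotated exons of a gene, so the order depends on it. Lss and Tm7sf2 had mean counts of 57.0 and 56.1 but lengths of 10787 and 4403 bases. The lowest count of any member in any library was 13 reads, so every member was detected in every library.

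**Figure D1:**
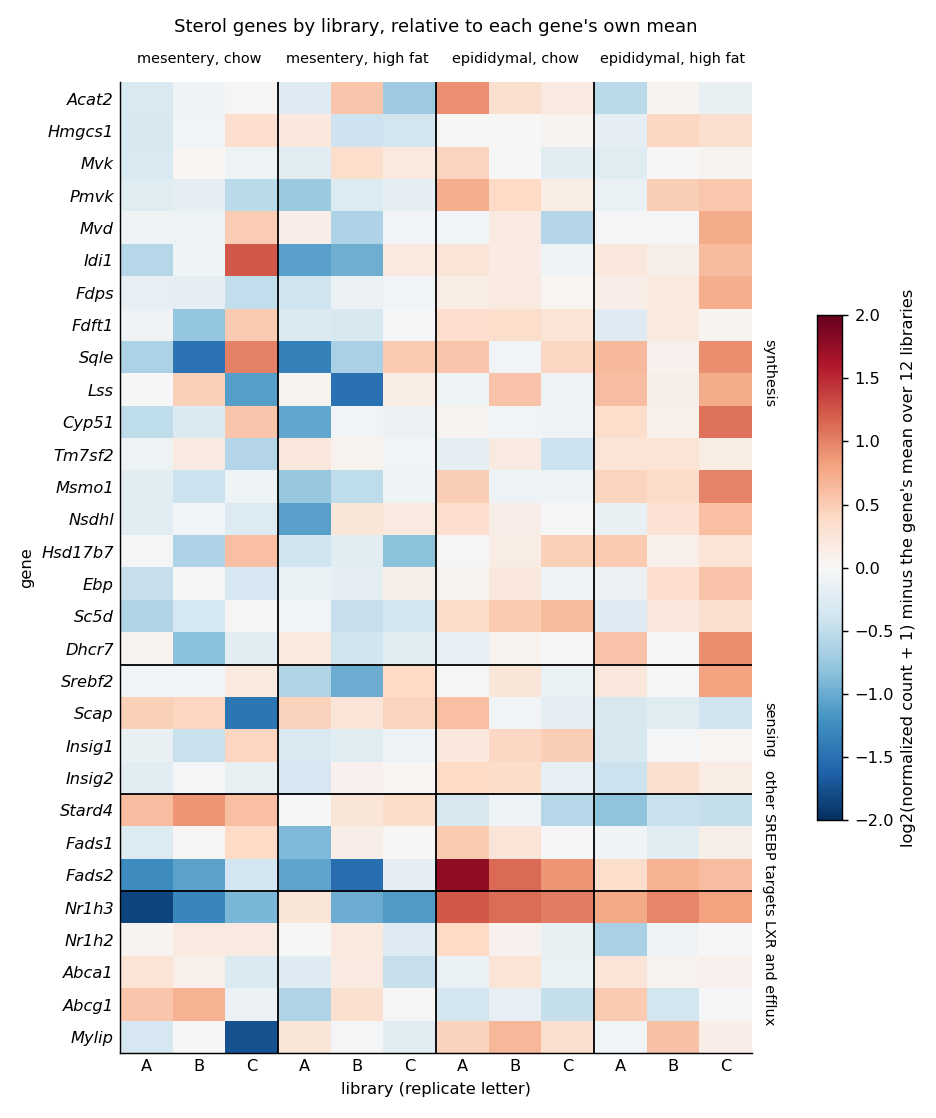
Each row is a member and each column a library; colour gives log2(normalized count + 1) minus the gene's mean over the 12 libraries. Fads2 and Nr1h3 are above their own means in all 6 epididymal libraries, and Stard4 is below its mean in all 6.

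The effect of HFD on these genes was asked first, within each tissue. No member passed the test in either tissue. In limma on log2(normalized count + 1), with an adjusted p under 0.05 as threshold, 0 of 30 members were called in mesentery, where 3 of all genes tested were (0.0135%), and 0 of 30 in epididymal fat, where 122 of all genes were (0.549%). At an unadjusted p under 0.05 the counts were 2 of 30 in mesentery (all genes 6.15%) and 1 of 30 in epididymal fat (all genes 6.94%). The quasi-likelihood test of edgeR and DESeq2 on the recovered reads called 0 members in both tissues as well.

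The sizes bound what these 3 libraries a group could show. The members' median log2 change was -0.12 in mesentery, with 10 of 30 estimates above 0, beside -0.0023 and 49.7% over all genes. In epididymal fat it was 0.10, with 16 of 30 above 0, beside 0.10 and 57.9% over all genes. The half-width of a member's 95% confidence interval had a median of 0.65 on this log2 scale. Single intervals reached from -1.73 to 1.46 in mesentery and from -1.48 to 1.57 in epididymal fat. Changes of the sizes within a member's interval were not excluded with this number of libraries. The intervals are not adjusted for the number of genes tested. Those of Stard4 and Nr1h3 in mesentery and of Acat2 in epididymal fat did not include 0, though none of these passed the adjusted test. Rescaling the libraries to the same total shifted the all-gene median to 0.13 in mesentery and to -0.04 in epididymal fat, and the number of members above 0 to 16 and 13, so no common direction is given for the members.

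**Figure D2:**
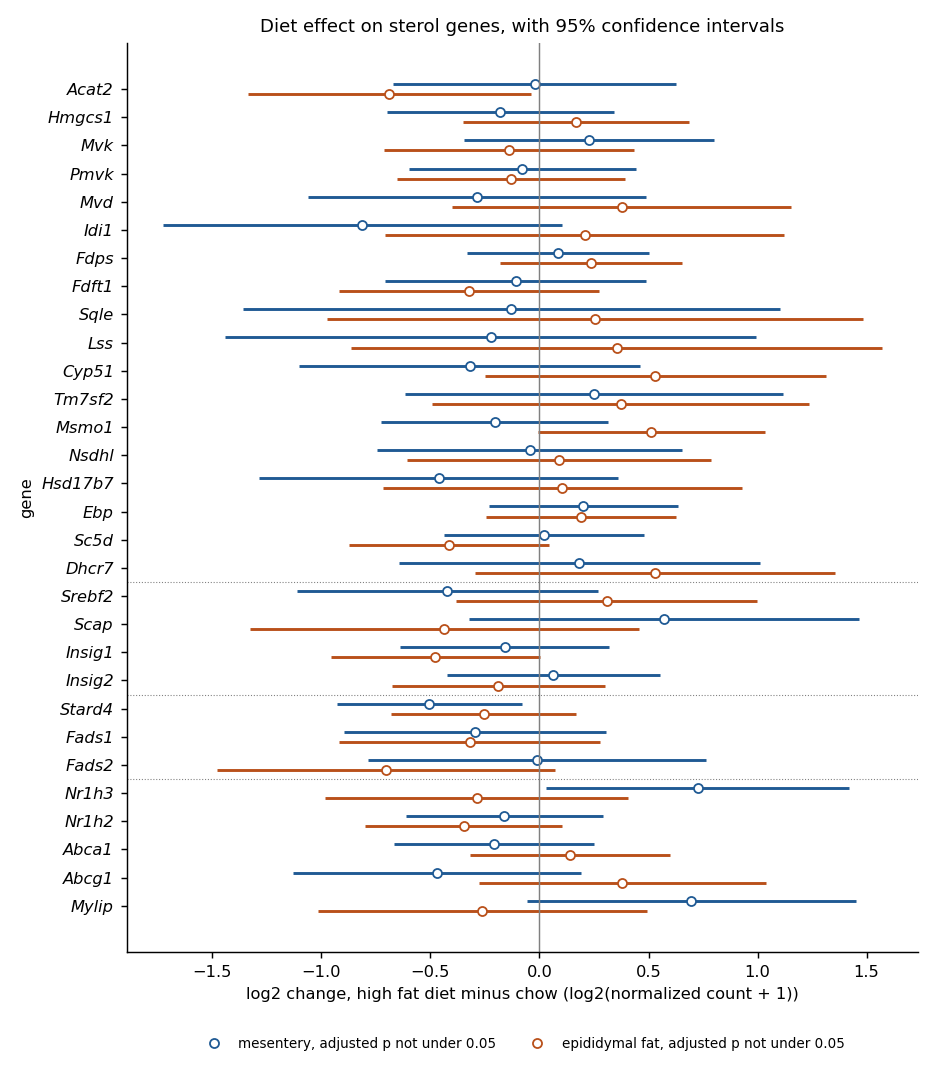
Points are limma estimates of HFD minus chow for each member, on the log2(normalized count + 1) scale, with bars for 95% confidence intervals (3 libraries per group); open points did not pass an adjusted p under 0.05. No point is filled in either tissue.

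Among the synthesis enzymes, the diet estimate furthest from 0 in mesentery was that of Idi1, which isomerises the building block of isoprenoids. Its normalized counts were 191, 266 and 669 on chow and 133, 144 and 326 on HFD. The groups overlapped, and chow library C was the highest of all 12. The log2 difference was -0.81 (SE 0.42, limma adjusted p = 0.868), and -0.06 among the libraries numbered 50 to 53 alone. Chow library C of mesentery was also the highest of 12 for Sqle at 329 normalized counts, had Cyp51 at 258 against 123 and 142 in its group, and was lowest of 12 for Scap and Mylip. It had the fewest reads of all libraries, and the part of this in the result was not tested.

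In epididymal fat the enzyme with the largest diet estimate was Acat2, which condenses acetyl-CoA at the start of the pathway. It was at 1022, 678 and 612 normalized counts on chow and at 369.9, 559.9 and 488 on HFD. Every chow library lay above every HFD library, yet the log2 difference of -0.69 (SE 0.30) had an adjusted p of 0.643 in limma. Non-overlapping groups were found for 8 of 30 members in epididymal fat, against 13.5% of all genes, and for 1 of 30 in mesentery, against 9.61%. In epididymal fat the values of Acat2, Fdft1, Sc5d, Scap, Insig1, Fads2 and Nr1h3 lay lower on HFD in every library and those of Cyp51, the lanosterol demethylase, lay higher, at 187 to 372 against 167 to 181 normalized counts. The 18 enzymes as a list had a median log2 difference of -0.09 in mesentery, with 6 above 0, and of 0.20 in epididymal fat, with 13 above 0. Under the same-total scaling these counts were 11 and 11.

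The sensor genes stayed within the same bounds. Scap had 375, 362 and 98.6 normalized counts in mesentery on chow and 372, 323 and 368 on HFD. The wide spread came from chow library C, and the log2 difference of 0.57 became -0.06 without it. In epididymal fat Scap was at 408, 259 and 234 on chow and at 215, 227 and 204 on HFD (log2 difference -0.44, SE 0.41, limma adjusted p = 1). Insig1, itself a target of Srebf2, was at 486, 559.5 and 586 on chow and at 336, 408 and 429 on HFD in epididymal fat. These groups did not overlap, and the log2 difference of -0.48 (SE 0.22) had a limma adjusted p of 0.721. In mesentery Insig1 was at 376, 308 and 560.4 on chow and at 339, 353 and 387 on HFD. Srebf2 ranged from 169 to 587 normalized counts over the 12 libraries and Insig2 from 594 to 1064, with both diets overlapping in both tissues.

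Stard4, a carrier that moves sterol between membranes and a Srebf2 target, had the lowest adjusted p for diet in mesentery. It was at 721, 868 and 709.6 normalized counts on chow and at 466, 552 and 605 on HFD. The groups did not overlap, and the log2 difference was -0.50 (SE 0.20, limma adjusted p = 0.718). In epididymal fat it was at 374, 442 and 317 on chow and 266, 342 and 338 on HFD, where the groups overlapped.

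Of the LXR genes, Nr1h3 had the largest diet estimate in mesentery, a log2 difference of 0.72 (SE 0.32, limma adjusted p = 0.789). Its values were 140.1, 202.5 and 268 normalized counts on chow and 596, 252 and 229 on HFD, so that 1 HFD library stood apart and the groups overlapped. Abcg1, a cholesterol exporter, was at 409, 454 and 258 normalized counts on chow and 183, 346 and 283 on HFD in mesentery. In epididymal fat it was at 216, 248 and 200.2 on chow and 399, 216 and 275 on HFD, again with overlap (log2 difference 0.38, SE 0.31, limma adjusted p = 1). Abca1, the exporter to lipid-poor apolipoprotein, had 471 to 782 normalized counts over all libraries, and Nr1h2 had 787 to 1632.

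Whether the diet acted differently in the tissues was tested by the difference of the diet effects. This gave 0 of 30 members in limma, where 1 of all genes tested was called (0.00450%), and 0 in edgeR and DESeq2. At an unadjusted p under 0.05 it gave 1 of 30, Nr1h3, with a difference of -1.01 on the log2 scale (SE 0.46), while 4.71% of all genes did so. The 2 diet effects of Idi1 differed by 1.02 (SE 0.60) and those of Scap by -1.01 (SE 0.59), both with a limma adjusted p of 1.00 (n = 3 libraries per group).

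The tissues themselves differed for a few members. On chow, 5 of 30 (16.7%) passed in limma, against 12.8% of all genes tested: Nr1h3, Fads2, Mylip and Sc5d were higher in epididymal fat (4 members, all genes 7.32%) and Stard4 was lower (1 member, all genes 5.47%). On HFD 4 of 30 (13.3%) passed, against 8.34% of all genes: Nr1h3, Fads2 and Msmo1 were higher in epididymal fat (3 members, all genes 4.91%) and Stard4 was again lower (1 member, all genes 3.43%). With edgeR and TMM 4 members passed on chow, without Mylip, and 2 on HFD, Msmo1 and Nr1h3. DESeq2 gave 6 and 6, and with libraries rescaled to the same total Stard4 alone passed on HFD. The 5 calls on chow became 3 without mesentery library A or epididymal library A or B of that diet, and the 4 on HFD became 2 without mesentery library A and 0 without mesentery library B or epididymal library C. In the same comparisons macrophage markers passed as higher in epididymal fat for 6 of 12 genes on chow and 11 of 12 on HFD, and acinar markers as lower for 7 of 7 on both diets. Fibroblast markers passed as higher for 7 of 7 on both diets, smooth muscle and pericyte markers for 6 of 8 and 3 of 8, mesothelial markers for 4 of 5 tested and 1 of 5, and adipocyte markers for 7 of 8 on chow and 0 of 8 on HFD, where 1 was lower. The part of these cells in the members' differences was not tested. Groups did not overlap for 10 of 30 members on chow (all genes 28.7%) and for 9 of 30 on HFD (all genes 26.4%). Both the shares called and the shares without overlap are of the same order as those of all genes.

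**Figure D3:**
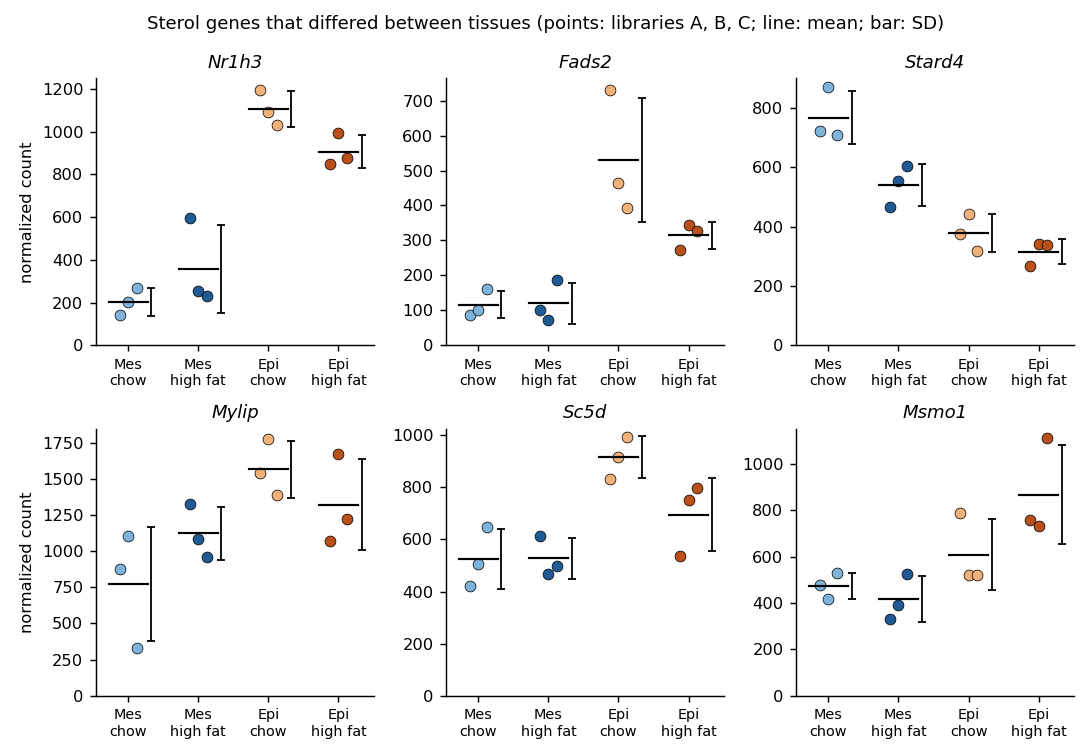
Normalized counts of the 6 members that passed the tissue test on either diet, for mesentery (Mes) and epididymal fat (Epi); points are libraries A, B and C, lines are means and bars are SDs (n = 3), and each vertical axis starts at 0. Nr1h3 and Fads2 are higher in every epididymal library than in every mesentery library, and Stard4 is lower.

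Nr1h3, which encodes LXR alpha, showed the largest tissue difference of the members on chow. Its 140.1, 202.5 and 268 normalized counts in mesentery faced 1197, 1092 and 1032 in epididymal fat. On HFD 596, 252 and 229 in mesentery faced 849, 993 and 878. Neither diet gave any overlap between the tissues. The log2 difference was 2.49 on chow (SE 0.32, limma adjusted p = 0.000273) and 1.47 on HFD (SE 0.32, limma adjusted p = 0.0138). It was 2.76 and 1.95 among the libraries numbered 50 to 53, and 1.94 and 0.51 in the single libraries numbered 87 and 88. The HFD call was lost without mesentery library B (limma adjusted p = 0.0746) or without epididymal library C (limma adjusted p = 0.0548). It was also lost with libraries rescaled to the same total and without the trend in eBayes. Markers of macrophages, fibroblasts, smooth muscle and pericytes, and on chow of adipocytes, were also called higher in epididymal fat, in the numbers given above, and the part of these cells in this difference was not tested.

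Nr1h2, which encodes the other receptor, LXR beta, did not follow. On chow its mean was 1359 ± 63.8 normalized counts in mesentery against 1350 ± 262 in epididymal fat (SD, n = 3), a log2 difference of -0.03 with a 95% confidence interval from -0.48 to 0.42.

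Fads2, a desaturase of polyunsaturated fatty acid synthesis, had 87.7, 100.4 and 162 normalized counts in mesentery and 729.9, 466 and 393 in epididymal fat on chow. On HFD it had 101, 73.5 and 187 in mesentery and 272, 345 and 327 in epididymal fat. All 6 epididymal libraries lay above all 6 mesentery libraries. The log2 difference was 2.17 on chow (SE 0.36, limma adjusted p = 0.00154) and 1.48 on HFD (SE 0.36, limma adjusted p = 0.0230). On HFD the call was lost without mesentery library A (limma adjusted p = 0.0744) or B (0.108), or without epididymal library B (0.0760) or C (0.0943), with log2 differences of 1.18 to 1.45. It was also lost in edgeR with TMM, with libraries rescaled to the same total and without the trend in eBayes. Fads1, the partner desaturase, differed by 0.21 on chow and 0.19 on HFD and did not pass.

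Stard4 was the member lower in epididymal fat on both diets. From the values above, its lowest mesentery library, 466 normalized counts, was above its highest epididymal library, 442. The log2 difference was -1.03 on chow (SE 0.20, limma adjusted p = 0.00401) and -0.78 on HFD (SE 0.20, limma adjusted p = 0.0278). Single libraries numbered 87 and 88 gave -1.16 and -0.80, and those numbered 50 to 53 gave -0.96 and -0.76. Its HFD call was lost without mesentery library B or C or epididymal library A or C, with limma adjusted p of 0.0739 to 0.0953 and log2 differences of -0.83 to -0.66. The same call was lost in edgeR with TMM, with only the groups of the comparison fitted and without the trend in eBayes. Of the 10 endothelial markers, 6 were called lower and 1 higher in epididymal fat on each diet. Estimates were above 0 for 4 of 10 on chow and 2 of 10 on HFD. The part of endothelial RNA in the Stard4 result was not tested.

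Sc5d, a desaturase of a late step in cholesterol synthesis, was at 420.2, 504 and 649 normalized counts in mesentery and at 833, 918 and 994 in epididymal fat on chow. No library overlapped, and the log2 difference was 0.82 (SE 0.21, limma adjusted p = 0.0224). The HFD libraries were at 614, 467 and 499 in mesentery and 536, 751 and 798 in epididymal fat, where the groups overlapped (log2 difference 0.39, limma adjusted p = 0.342). The chow call was lost without mesentery library A (limma adjusted p = 0.107) or B (0.0634) or any of epididymal libraries A (0.0505), B (0.0771) and C (0.0613). It was also lost with libraries rescaled to the same total (0.0523) and without the trend in eBayes (0.0685).

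Msmo1, which oxidises methyl groups of the sterol ring, was at 476, 416 and 528 normalized counts in mesentery and 786, 519.5 and 522 in epididymal fat on chow, with overlap (log2 difference 0.34, limma adjusted p = 0.428). On HFD it was at 331, 392 and 526 in mesentery and 759, 733 and 1112 in epididymal fat, with no overlap. That log2 difference was 1.06 (SE 0.24, limma adjusted p = 0.0167), and the change of the tissue difference with diet, 0.72 (SE 0.34), did not pass (limma adjusted p = 1.00). The HFD call was lost without mesentery library A (limma adjusted p = 0.0714) or B (0.0701) or epididymal library C (0.0981). It was also lost with libraries rescaled to the same total and without the trend in eBayes.

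Mylip was at 879, 1105 and 334 normalized counts in mesentery and 1538, 1775 and 1386 in epididymal fat on chow. On HFD it was at 1326, 1082 and 960.4 in mesentery and 1069, 1675 and 1225 in epididymal fat, with overlap. The log2 difference on chow was 1.18 (SE 0.35, limma adjusted p = 0.0417), the closest of the calls to the threshold. It was 0.74 in libraries numbered 50 and 51 and 2.05 in those numbered 87, and 0.66 without mesentery library C (limma adjusted p = 0.0708). The call was also lost without mesentery library A or any epididymal library on chow, without any mesentery library on HFD and without epididymal library C on HFD, with limma adjusted p of 0.0504 to 0.144. Both edgeR fits, the fit of only the groups of the comparison and the fit without the trend in eBayes lost it too.

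**Figure D4:**
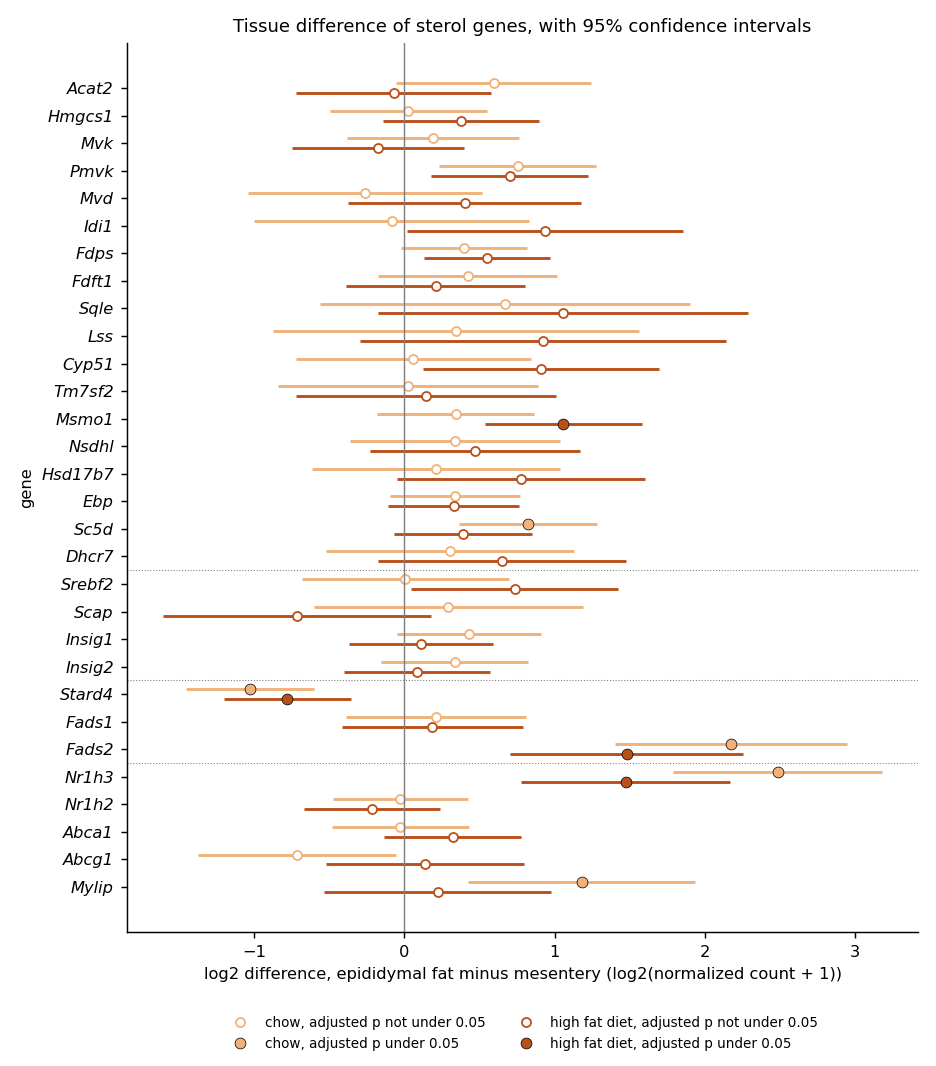
Points are limma estimates of epididymal fat minus mesentery for each member on either diet, with bars for 95% confidence intervals on the log2(normalized count + 1) scale; filled points passed an adjusted p under 0.05. Nr1h3, Fads2 and Stard4 are filled on both diets, Sc5d and Mylip on chow and Msmo1 on HFD.

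Over all 30 members, those that passed included, most estimates lay on the epididymal side. On chow 24 of 30 log2 differences were above 0, with a median of 0.32, beside 46.8% and -0.08 over all genes. On HFD 25 of 30 were above 0, with a median of 0.38, beside 53.01% and 0.06 over all genes. Of the 18 synthesis enzymes 16 were above 0 on chow (median 0.34) and 16 on HFD (median 0.51). With libraries rescaled to the same total the counts were 27 and 21 of 30 members and 17 and 15 of 18 enzymes, while the median of all genes moved to 0.01 on chow and -0.12 on HFD. That scaling also moved the split of all calls, from 1627 of 2843 higher in epididymal fat on chow to 1947 of 2894, and from 1092 of 1854 on HFD to 703 of 1989.

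Pmvk, which adds the later phosphate to mevalonate, and Fdps, which joins isoprenoid units, did not overlap between tissues on either diet. Pmvk was at 286 to 362 normalized counts in mesentery and 460 to 691 in epididymal fat on chow, and at 249 to 362 and 379 to 603 on HFD (log2 differences 0.75 and 0.70, limma adjusted p = 0.0584 and 0.0982). Fdps was at 503 to 634 and 726 to 802 on chow, and at 538 to 682 and 781 to 1180 on HFD (log2 differences 0.40 and 0.55, limma adjusted p = 0.221 and 0.105). Abcg1 pointed the other way on chow, with all mesentery libraries above all epididymal ones (log2 difference -0.72, SE 0.31, limma adjusted p = 0.157). Scap was lower in every epididymal library than in every mesentery library on HFD (log2 difference -0.71, SE 0.41, limma adjusted p = 0.377). Insig1 did not pass on chow (0.43, limma adjusted p = 0.253), though it did without mesentery library C (0.67, limma adjusted p = 0.0376).

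Set against each gene's mean over all 12 libraries, which includes the tissue difference, 17 of the 18 enzymes were above it in epididymal library C on HFD, by a median of 0.58 on the log2 scale, and for 8 of 18 that library was the highest of the 12. None of the 18 was lowest in an epididymal library. Within groups the enzymes did not all move together. Over deviations from the group means, the mean correlation between pairs of enzymes was 0.14, beside 0.0077 for pairs of all tested genes (12 libraries that share depth and scaling across genes). Of the 153 pairs 50 had a correlation below 0. The 3 highest were Hmgcs1 with Sc5d (r = 0.94), Idi1 with Sqle (r = 0.84) and Pmvk with Nsdhl (r = 0.81), and the 3 lowest were Sqle with Tm7sf2 (r = -0.83), Fdft1 with Tm7sf2 (r = -0.69) and Acat2 with Lss (r = -0.68), given as a description of these 12 libraries.

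Genes around the pathway were taken from further lists. Of 15 genes of sterol uptake and trafficking, 2 rose on HFD in epididymal fat in limma (all genes called in either direction 0.549%). In mesentery 0 passed (all genes 0.0135%), and 3 had an unadjusted p under 0.05 (all genes 6.15%). Lipa, the lysosomal lipase that frees cholesterol from its esters, was at 834, 1001 and 751 normalized counts on chow and 4920, 2637 and 4540 on HFD. The log2 difference was 2.18 (SE 0.23, limma adjusted p = 0.00215). Soat1, which esterifies cholesterol for storage, was at 220.1, 215 and 142 on chow and 1149, 728 and 1365 on HFD (log2 difference 2.46, SE 0.36, limma adjusted p = 0.00837). In mesentery Lipa stayed between 1125 and 1511 in all 6 libraries. The macrophage marker Cd68 stood at 715, 2154 and 325 on chow and 22983, 12006 and 26841 in the same epididymal HFD libraries, and 12 of 12 macrophage markers had estimates above 0 (median 2.85), 10 of them with an unadjusted p under 0.05 and 0 with an adjusted one in limma. The Soat1 call was lost without epididymal library C (limma adjusted p = 0.0703), and the part of macrophage RNA in both changes was not tested.

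Between tissues on chow, 6 of 10 tested genes of a list of other LXR targets passed in limma (all genes 12.8%). Srebf1 (log2 difference 0.95), Lpcat3 (0.73), Scd1 (2.77) and Lpl (4.002), which act in fatty acid synthesis, phospholipid remodelling, desaturation and lipoprotein hydrolysis, were higher in epididymal fat. Smpdl3a (-0.70) and Mertk (-0.82) were lower. On HFD 2 of 10 passed (all genes 8.34%), Lpl higher (4.25) and Mertk lower (-0.84). Adipocyte markers were called higher in epididymal fat for 7 of 8 genes on chow and 0 of 8 on HFD. Macrophage markers were called higher for 6 of 12 and 11 of 12, and fibroblast markers for 7 of 7 on both diets. Smooth muscle and pericyte markers were called higher for 6 of 8 and 3 of 8. The part of these cells in the differences was not tested. In the uptake list 2 of 15 genes passed on chow (13.3%, all genes 12.8%). Lrp1, a lipoprotein receptor, was higher in epididymal fat (log2 difference 3.95) and Gramd1a, a sterol transporter, lower (-1.02). On HFD 4 of 15 passed (26.7%, all genes 8.34%), with Lipa, Soat1, Npc2 and Lrp1 higher. Another list held 12 genes around processing and degradation of the sterol-regulated transcription factors and their sensor. On chow 1 of 12 passed (8.33%, all genes 12.8%), Srebf1, itself the gene of such a factor and counted in this list too. On HFD 0 of 12 passed in limma (all genes 8.34%), nor did any at an unadjusted p under 0.05. Of 12 genes of the isoprenoid branch and electron transfer, 1 passed on chow (8.33%, all genes 12.8%), Cyb5r3 (log2 difference 1.21). On HFD 1 passed (8.33%, all genes 8.34%), Nus1 (0.75). In the processing and degradation list and in the isoprenoid list the shares called were no higher than those of all genes.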

How the data were processed

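Per the submitters' processing notes, STAR 2.7.9a, featureCounts (Subread), DESeq2 1.34.0 and build mm39 were used; neither the annotation nor strand use is given in the sources used here, so overlapping genes could share reads. The authors deposited a normalized count per gene and library, a signal that is never negative. All values (100.0%) were whole reads times 1 step per library, within a tolerance of 1e-06, which let counts be recovered. A floor of 3 reads is 2.12 to 4.22 normalized counts.

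Groups came from the sample titles. Genes with a mean of at least 10 were tested on log2(normalized count + 1) in R 4.3.3 with limma 3.58.1, eBayes with trend, in a model with 4 group means, and p-values were adjusted over 22238 genes by Benjamini-Hochberg; this scale understates changes of low genes. The code was tested on simulated data. Alternatives were edgeR 4.0.16 and DESeq2 1.42.0 on recovered reads, pseudocounts 0.5 and 8, other filters and scalings, blocks and left-out libraries. Exon lengths came from a GENCODE annotation of GRCm38 (30 of 30 matched). Intervals cover the spread between libraries.

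The members and lists were chosen with earlier results of these data known. Values in every library are given for members called in any comparison and, in each role group, for the member with the largest change in each diet comparison and between tissues on chow; other named genes belong to a list and passed, or define a cell type. Other members were named for ranges, counts or single values after these were seen: Pmvk, Fdps, Cyp51, Hmgcs1, Sqle, Fdft1, Nsdhl, Ebp, Lss, Tm7sf2, Dhcr7, Srebf2, Insig2, Fads1, Nr1h2 and Abca1. Genes of the lists outside the table or under the minimum are not analysed here.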

Additional observations from a re-analysis of the deposited data

How the results depend on the processing

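No member was called for diet in either tissue, or for the difference of the diet effects, under any of the alternatives run. Between tissues, Nr1h3, Fads2 and Stard4 passed on chow in 25 of 25 alternatives, Sc5d in 18 and Mylip in 12; on HFD Nr1h3 passed in 21, Msmo1 in 20, and Fads2 and Stard4 in 18 each. No called difference changed sign. The 5 calls on chow became 3 without the trend in eBayes, and 3 to 6 with 1 library left out. The 4 calls on HFD became 2 with edgeR and TMM, 1 with libraries rescaled to the same total, 7 with libraries numbered 50 to 53 only and 0 without the trend. With 1 library left out they ranged from 0 to 4, and 0 was reached without mesentery library B or epididymal library C of HFD; the cause was not tested. Leaving out 1 library also added calls: Insig1 on chow without mesentery library C, Pmvk on chow without epididymal library C of that diet or A of HFD and on HFD without epididymal library A, and Srebf2 on HFD without mesentery library C. The diet changes of Lipa and Soat1 in epididymal fat, tried in alternatives chosen after seeing the data, passed in 24 and 22 of 25.

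Over all genes, limma called 3 and 122 for diet in mesentery and epididymal fat, 2843 and 1854 between tissues on chow and HFD, and 1 for the difference of the diet effects. In the same order, edgeR with TMM on the recovered reads called 1, 29, 1984, 1021 and 1, and DESeq2 called 150, 563, 3927, 2931 and 130. The lowest and highest counts over all alternatives were 1 and 150, 1 and 563, 1516 and 4349, 728 and 2931, and 0 and 130.

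Libraries of both tissues share a number in the labels (50 to 53, 87 and 88). Deviations of same-numbered libraries correlated at 0.03, 0.53 and 0.58 on chow and at -0.15, 0.15 and -0.11 on HFD. Chow and HFD libraries of the same letter, which carry different numbers, gave -0.15, 0.12 and 0.04 in mesentery. In epididymal fat they gave -0.68, 0.44 and -0.65. With 3 libraries per group such values cannot show whether the numbers pair the libraries. The main model therefore has no block for the number. With the replicate block for that number, 6 members were called on chow, 4 on HFD and 0 for the difference of the diet effects. With the replicate block for the letter, 0 were called for diet in either tissue.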
